A study of Mus musculus with 14 samples.

Results

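The 46 genes described here encode enzymes that use 2-oxoglutarate, iron and oxygen to hydroxylate or demethylate a substrate, with the demethylases of H3K27 left out. They were matched by symbol in the deposited count table, where each of the 46 was found once among 49315 genes. They were sorted by known or proposed substrate into 12 histone lysine demethylases, 4 enzymes of DNA, 5 of RNA and 4 hydroxylases of the hypoxia-inducible factor HIF. The rest were sorted into 8 of collagen, 10 of other proteins and 3 of small molecules. Alkbh6 was placed with other proteins although its substrate is not established. The samples were hearts of male wild-type C57BL/6 mice on standard chow, 4 RNA-seq libraries at 68 weeks of age and 4 at 12 weeks. The labels name no other treatment or allele. Total RNA came from pulverised tissue, so the libraries mix all cell types of the heart, and the labels do not say that each library stands for its own mouse. P-values therefore measure the spread between these libraries. Values given library by library follow the order of replicates 1 to 4.

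2-oxoglutarate is an intermediate of the citrate cycle and is also formed from glutamine by way of glutamate. Each turnover of these enzymes consumes 2-oxoglutarate and oxygen and releases succinate and carbon dioxide, and succinate and fumarate can inhibit them. Among them are the EGLN enzymes, which mark HIF for degradation when oxygen is present, the TET enzymes, which oxidise 5-methylcytosine in DNA, and the prolyl and lysyl hydroxylases without which collagen does not form a stable, crosslinked helix.

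Each library held between 28842059 and 34599121 counts at 68 weeks, and between 23599296 and 31662601 at 12 weeks. The 9 cardiomyocyte markers summed to between 56602 and 61436 CPM, counts scaled to a library of 1e6 reads, at 68 weeks and to between 55538 and 66380 CPM at 12 weeks. EdgeR called 0 of the 9, with a median log2 fold change of 0.047. DESeq2 called 1 higher, Actn2 (0.24 by edgeR, edgeR adjusted p = 0.0702, DESeq2 adjusted p = 0.00251). The 20 airway epithelium markers, all of them with counts, together gave 31.8, 20.1, 1125 and 28.1 CPM in the 68-week libraries, against 1877, 1001, 598 and 65.9 CPM in the 12-week libraries. High airway counts thus stood in 1 library at 68 weeks and in 3 at 12 weeks. The 9 fat cell markers summed to between 48.8 and 160 CPM at 68 weeks and to between 231 and 658 CPM at 12 weeks. By edgeR 4 of them fell, and 0 were called with airway markers as a covariate. The 4 B cell markers summed to between 0.838 and 1.80 CPM at 68 weeks and to between 1.96 and 7.88 CPM at 12 weeks. Here 2 fell by edgeR, and again 0 were called with that covariate. The macrophage marker Cx3cr1, 1 of 8, fell (log2 fold change -1.62, edgeR adjusted p = 0.00738), also with airway markers as a covariate (adjusted p = 0.0319). All 8 macrophage markers summed to 213 to 241 CPM at 68 weeks and 232 to 255 CPM at 12 weeks, with overlap. Their median log2 fold change was -0.028. Of 5 T and NK cell markers 2 were tested, with a median of -0.29. Trac fell (-1.04, edgeR adjusted p = 0.0424) and lost its call with the covariate. All 5 summed to 1.47 to 2.09 CPM at 68 weeks and 2.05 to 2.75 CPM at 12 weeks, also with overlap. The 4 Schwann cell markers summed to between 9.91 and 17.7 CPM at 68 weeks and to between 17.9 and 28.7 CPM at 12 weeks, with 0 called by edgeR and 1 by DESeq2. Neutrophil markers, 4 in all, summed to 2.84 to 5.46 CPM at 68 weeks and 4.80 to 32.1 CPM at 12 weeks. Of these, edgeR called 0 and DESeq2 called 4 lower, with a median log2 fold change of -2.06 by edgeR. The 7 endothelial markers summed to 862 to 1074 CPM at 68 weeks and 999 to 1440 CPM at 12 weeks. EdgeR called 0 of them and DESeq2 called 2 lower. For 6 smooth muscle and pericyte markers the sums were 790 to 888 and 715 to 1357 CPM, and neither method called any. Their median log2 fold change was -0.28. For 5 cartilage markers the sums were 20.4 to 36.5 CPM at 68 weeks and 17.5 to 34.8 CPM at 12 weeks. Here edgeR called 0 and DESeq2 called 2 higher. The part of these cells in the results below was not tested, and called genes are also given with the airway markers in the model.

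Of the 46 dioxygenase genes, 43 passed the filter on low counts. Between 68 and 12 weeks, 1 of the 43 rose and 2 fell at an adjusted p of at most 0.05 by edgeR's quasi-likelihood test, adjusted over all 15947 genes tested. The gene that rose was Egln3, a HIF prolyl hydroxylase, and those that fell were Tet1 and Tet3. These 3 genes made 6.98% of the members tested, against 2.83% of all genes tested, of which 1.61% were higher and 1.22% lower. At an unadjusted p of at most 0.05 there were 11 members, 25.6% of those tested, against 19.0% of all genes. The 4 libraries of an age did not overlap for 4 members that stood higher at 68 weeks (Egln3, P4ha1, Alkbh3 and Alkbh6) and for 2 that stood lower (Tet1 and Tet3), against 6.26% of all genes higher, 5.86% lower and 12.1% in either direction. The median log2 fold change of the 43 members was 0.013, against -0.0082 for all genes tested, and the median size was 0.10 against 0.11. The 95% interval of the log2 fold change lay within 0.5 of 0 for 37 of the 43 members (86.0%), against 63.8% of all genes tested. The members and all genes were not matched for level, on which the width of an interval also depends.

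**Figure D1:**
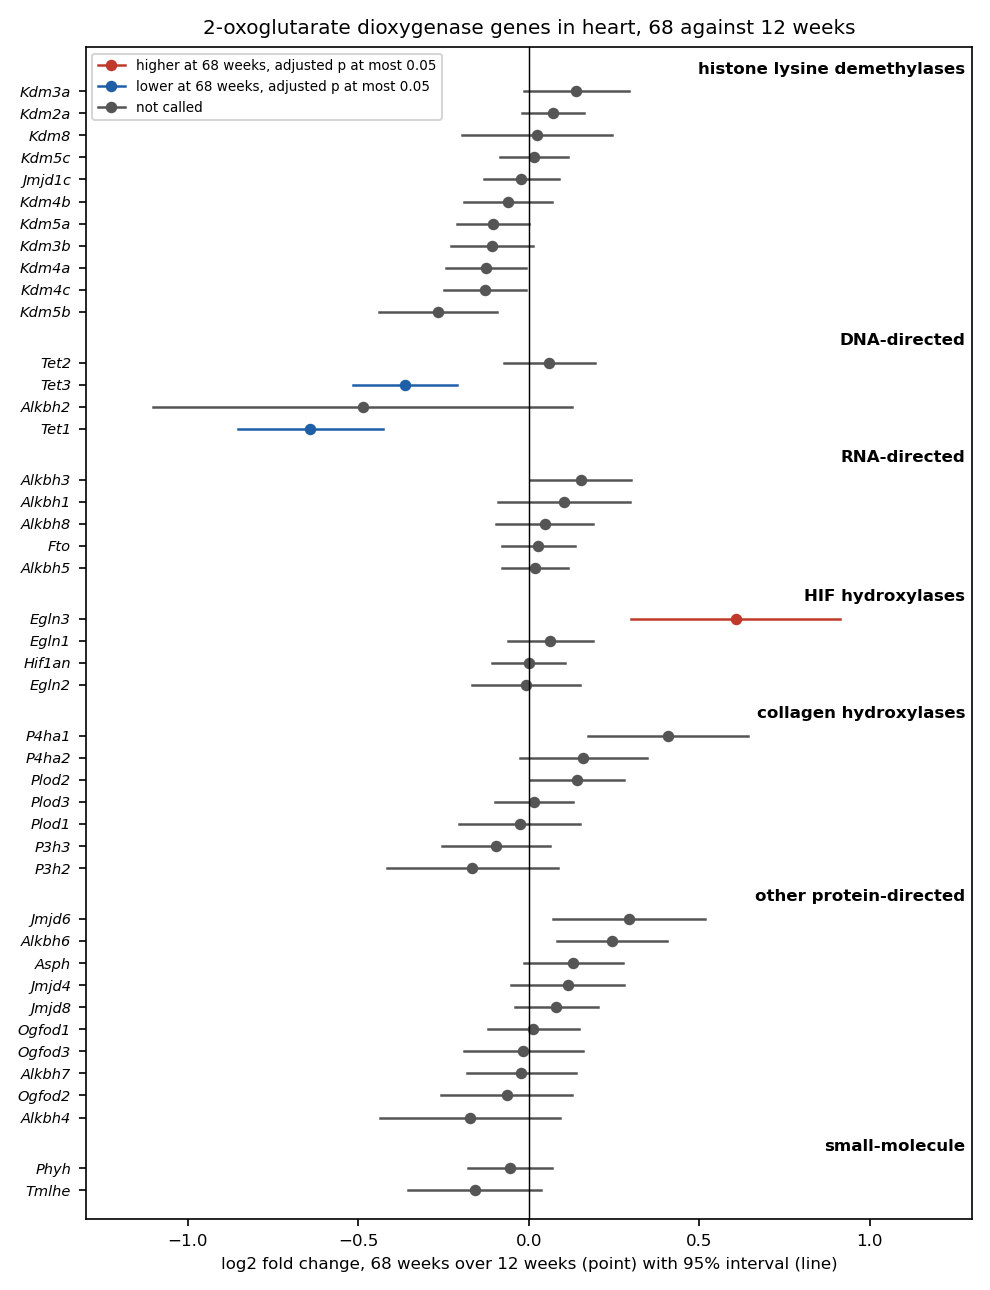
Log2 fold change of the 43 dioxygenase genes that passed the filter, 68 weeks over 12 weeks, as points with 95% intervals as lines (x axis, log2), sorted by class down the page. Egln3 lies to the right of 0 and Tet1 and Tet3 to the left as the called genes, while 37 intervals stay within 0.5 of 0.

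Levels between genes were compared as CPM per kilobase of counted exon. The most abundant members were the peroxisomal gene Phyh, at means of 219 at 68 weeks and 228 at 12 weeks, and Egln1, at 160 ± 8.59 and 153 ± 6.27 (SD, n = 4 each). Egln3 stood at 50.2 ± 6.13 at 68 weeks and 33.0 ± 6.18 at 12 weeks, the m6A demethylase gene Alkbh5 at 39.2 ± 0.603 and 38.8 ± 1.203, and the mitochondrial Alkbh7 at 35.8 ± 2.02 and 36.4 ± 3.40. The order of Egln3, Alkbh5 and Alkbh7 therefore differed between the ages: at 68 weeks Egln3 stood above both, and at 12 weeks its mean was below both. The least abundant histone demethylase that passed the filter was Kdm5b, at 1.72 ± 0.149 at 68 weeks and 2.07 ± 0.170 at 12 weeks. The most abundant were Kdm5c, at 9.72 ± 0.347 and 9.62 ± 0.309, and Kdm3b, at 9.44 ± 0.620 and 10.2 ± 0.296, whose libraries overlapped at both ages. Tet1, at 0.749 ± 0.0960 at 68 weeks and 1.17 ± 0.0725 at 12 weeks, was among the least abundant genes that passed the filter, with Alkbh2 and Alkbh1.

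**Figure D2:**
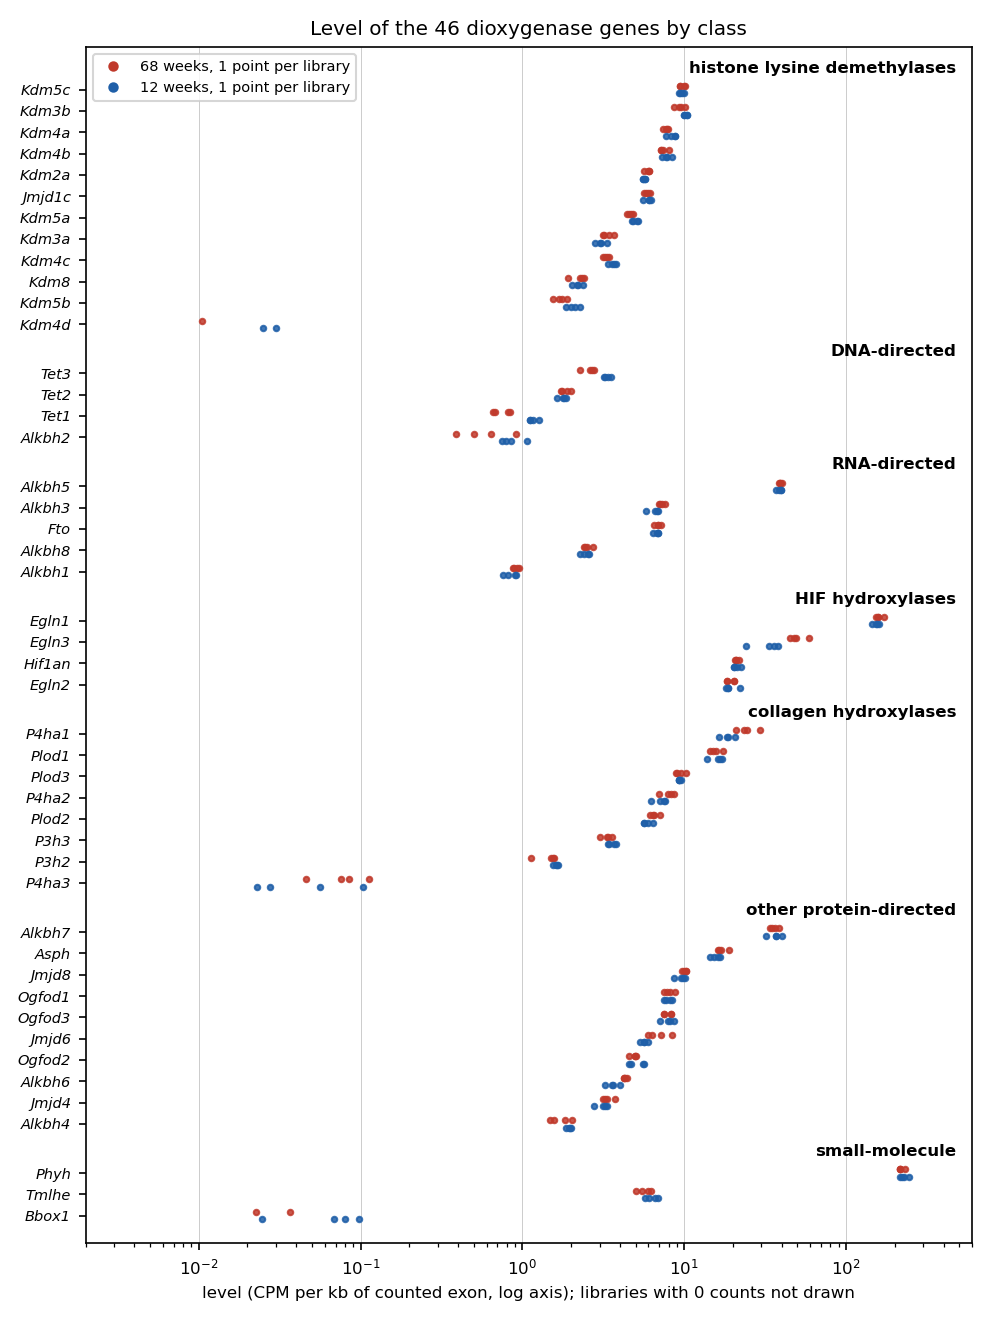
Level of all 46 dioxygenase genes in CPM per kilobase of counted exon (x axis, log scale), 1 point per library, 68 weeks above 12 weeks in each row. Phyh and Egln1 lie furthest right at both ages, and Kdm4d, P4ha3 and Bbox1 lie below the filter on low counts.

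Transcripts of the DNA demethylation enzymes Tet1 and Tet3 fell at 68 weeks, and those of Tet2 did not pass the test. TET enzymes convert 5-methylcytosine to 5-hydroxymethylcytosine and further products, and Tet1 and Tet3, unlike Tet2, carry a CXXC domain that binds unmethylated CpG. Tet1 (chromosome 10, 62804570 to 62899118, mm10 by label) stood at 12.1, 9.70, 12.4 and 9.91 CPM in the 68-week libraries, against 16.4, 17.1, 16.4 and 18.7 CPM in the 12-week libraries. All 4 libraries at 68 weeks lay below all 4 at 12 weeks. Tet1 fell by 35.9%, a log2 difference of -0.64 ± 0.095 (SE, edgeR adjusted p = 0.0110).

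Tet3 (chromosome 6, 83362373 to 83459084) stood at 46.5, 45.0, 43.4 and 37.8 CPM in the 68-week libraries, against 58.7, 53.2, 53.8 and 56.2 CPM in the 12-week libraries. Again the libraries of the ages did not overlap. Tet3 fell by 22.3%, a log2 difference of -0.36 ± 0.068 (edgeR adjusted p = 0.0283). Tet2 stood at 29.5, 33.7, 32.0 and 29.4 CPM in the 68-week libraries, against 30.5, 27.7, 30.0 and 31.2 CPM in the 12-week libraries, and the ages overlapped. Its log2 fold change was 0.06 with a 95% interval of -0.07 to 0.19, which does not meet the intervals of Tet1 (-0.85 to -0.43) and Tet3 (-0.51 to -0.21). Per kilobase, the 3 genes together stood at 5.18 ± 0.335 CPM at 68 weeks and 6.26 ± 0.241 at 12 weeks. Tet2 made 32.7% to 37.3% of that sum at 68 weeks and 27.4% to 29.1% at 12 weeks, Tet1 12.3% to 15.8% and 17.4% to 19.6%, and Tet3 48.3% to 52.0% and 51.9% to 54.6%.

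In libraries with few airway counts, Tet1 stood at 9.70 to 12.1 CPM at 68 weeks (replicates 1, 2 and 4) against 18.7 CPM at 12 weeks (replicate 4), and Tet3 at 37.8 to 46.5 CPM against 56.2 CPM. In those with many, Tet1 stood at 12.4 CPM at 68 weeks (replicate 3) against 16.4 to 17.1 CPM at 12 weeks (replicates 1 to 3), and Tet3 at 43.4 CPM against 53.2 to 58.7 CPM. With the airway markers in the model, the log2 fold changes were -0.60 ± 0.12 for Tet1 and -0.36 ± 0.086 for Tet3, and neither was called (edgeR adjusted p = 0.0619 and 0.127). Tet3 was called in 2 of the 8 fits that left out 1 library, those without 68-week replicate 1 or 4, and Tet1 in all 8. In a bulk sample, fewer cells of a type and less RNA per cell cannot be told apart.

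The repair enzyme gene Alkbh2, which acts on alkylated bases in double-stranded DNA, had the lowest CPM of the members that passed the filter, at 0.563, 0.433, 0.709 and 1.01 CPM in the 68-week libraries, against 0.884, 1.185, 0.947 and 0.830 CPM in the 12-week libraries. The libraries overlapped and the interval was wide, with a log2 fold change of -0.49 (95% interval -1.1 to 0.13). Of its counted exon, 29.5% overlaps the gene Usp30 on the other strand, so its counts may include reads of that gene. Of 6 DNA methylation genes, 0 rose and 1 fell by edgeR as by DESeq2, the de novo methyltransferase gene Dnmt3a, which stood at 81.4 ± 3.81 CPM at 68 weeks and 95.8 ± 4.26 at 12 weeks (log2 fold change -0.24 ± 0.051, adjusted p = 0.0445, edgeR). With the airway markers in the model Dnmt3a kept a log2 difference of -0.24 without a call (edgeR adjusted p = 0.178).

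The promoter windows of the called TET genes are shown because both genes fell at 68 weeks. Each holds 250 bases before and 50 after a RefSeq start in build GRCm38.p6, on the minus strand, at chr10:62887275-62887574 for Tet1 and chr6:83441629-83441928 for Tet3. Both windows lie inside the span counted for the gene, so other starts exist upstream. Capitals would mark the HIF core motif ACGTG or its variant with a first G, GCGTG, on either strand, and neither window holds one.
Tet1: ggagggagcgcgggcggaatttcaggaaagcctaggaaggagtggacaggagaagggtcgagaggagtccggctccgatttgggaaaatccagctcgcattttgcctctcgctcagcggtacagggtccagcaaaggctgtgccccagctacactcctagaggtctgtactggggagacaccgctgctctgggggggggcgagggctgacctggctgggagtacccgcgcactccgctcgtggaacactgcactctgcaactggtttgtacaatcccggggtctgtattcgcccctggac
Tet3: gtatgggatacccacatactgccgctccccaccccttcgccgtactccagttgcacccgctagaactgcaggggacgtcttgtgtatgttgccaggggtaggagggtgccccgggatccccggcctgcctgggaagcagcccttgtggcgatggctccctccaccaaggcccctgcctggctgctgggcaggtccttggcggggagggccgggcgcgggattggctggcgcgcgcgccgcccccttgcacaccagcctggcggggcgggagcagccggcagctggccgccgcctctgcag
The Tet1 window held 17 CpG dinucleotides and 61.7% G and C, and the Tet3 window 22 and 71.3%, against medians of 7 and 52.7% over 32851 RefSeq windows.

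Of the HIF hydroxylases, Egln3 alone passed the test. EGLN enzymes hydroxylate prolines of HIF alpha subunits so that the VHL ligase degrades them, Egln1 being the main one in most cells and Egln3 being itself a HIF target. Egln3 (chromosome 12, 54178981 to 54203860) stood at 130, 157, 120 and 127 CPM in the 68-week libraries, against 101, 89.1, 96.1 and 64.2 CPM in the 12-week libraries. The ages did not overlap, 68-week replicate 2 was the highest and 12-week replicate 4 the lowest. Egln3 stood 52.3% higher at 68 weeks, a log2 difference of 0.61 ± 0.14, and its adjusted p of 0.0499 (edgeR) lies at the threshold. It was called in 1 of the 8 fits that left out 1 library, the one without 12-week replicate 4 (0.48, adjusted p = 0.0415, edgeR), and had 0.52 to 0.69 in the others. With the airway markers in the model its log2 fold change was 0.68 ± 0.18 (adjusted p = 0.162, edgeR). In libraries with few airway counts it stood at 127 to 157 CPM at 68 weeks against 64.2 CPM at 12 weeks, and in those with many at 120 CPM against 89.1 to 101 CPM.

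Egln1 stood at 564, 619, 567 and 547 CPM in the 68-week libraries, against 520, 561, 572 and 546 CPM in the 12-week libraries. These overlapped, with a log2 fold change of 0.06 (95% interval -0.06 to 0.19). Egln2 averaged 54.0 ± 3.05 CPM at 68 weeks and 54.3 ± 5.07 at 12 weeks. Hif1an, the asparaginyl hydroxylase that blocks HIF from binding its coactivators, averaged 139 ± 2.89 CPM at 68 weeks and 139 ± 6.94 at 12 weeks (95% interval of the log2 fold change -0.11 to 0.11). Per kilobase, Egln3 made 20.4% to 23.7% of the EGLN sum at 68 weeks and 12.4% to 19.0% at 12 weeks, and Egln1 69.0% to 71.3% and 72.0% to 78.1%.

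Of 23 genes of HIF subunits and HIF targets, edgeR called 0 higher and 1 lower, with a median difference of 0.024 (log2) over the list. The gene that fell was the glycolytic regulator Pfkfb3, at 16.9 ± 4.18 CPM at 68 weeks and 37.9 ± 9.13 at 12 weeks (log2 fold change -1.17 ± 0.21, adjusted p = 0.0256, edgeR), opposite in sign to Egln3. With the airway markers in the model it had -1.13 and was not called (adjusted p = 0.101, edgeR). DESeq2 called Pfkfb3 lower too and 3 genes higher, the glycolytic gene Aldoa, the pyruvate dehydrogenase kinase gene Pdk1 and Ankrd37. At an unadjusted p of at most 0.05, edgeR gave 8 of the 23.

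The Egln3 window is shown because Egln3 rose, and the P4ha1 window because P4ha1, a collagen prolyl hydroxylase that is also a known HIF target, had the next smallest p among the members. They lie at chr12:54203825-54204124 on the minus strand and chr10:59323046-59323345 on the plus strand of GRCm38.p6. Capitals mark the motif ACGTG, the variant GCGTG and their reverse complements.
Egln3: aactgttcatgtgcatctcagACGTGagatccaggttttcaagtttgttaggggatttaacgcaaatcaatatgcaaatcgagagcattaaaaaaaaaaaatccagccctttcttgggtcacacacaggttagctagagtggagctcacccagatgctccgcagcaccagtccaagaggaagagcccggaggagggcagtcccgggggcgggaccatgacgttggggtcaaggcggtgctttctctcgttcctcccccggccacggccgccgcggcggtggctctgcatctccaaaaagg
P4ha1: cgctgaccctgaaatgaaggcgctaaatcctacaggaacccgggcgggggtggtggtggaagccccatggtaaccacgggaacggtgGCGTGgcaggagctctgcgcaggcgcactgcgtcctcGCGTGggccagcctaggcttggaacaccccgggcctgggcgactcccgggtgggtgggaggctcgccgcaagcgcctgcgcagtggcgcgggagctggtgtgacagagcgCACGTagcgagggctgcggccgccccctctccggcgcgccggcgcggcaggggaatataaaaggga
Egln3 held 1 match to ACGTG, from base 22 of the 300. P4ha1 held 1 to its reverse complement, from base 235, and 2 to GCGTG, from bases 88 and 125. None of these lay in an E-box, whose letters are CACGTG. The motif ACGTG occurred in 13 of the members' 44 RefSeq windows (29.5%) and in 19.6% of all windows, and GCGTG in 20 of 44 (45.5%) and 32.4%. Counted by gene, ACGTG occurred in a window of 13 of 37 members (35.1%) and of 21.8% of 27025 genes, and GCGTG in 19 of 37 (51.4%) and 35.2%. CACGTG occurred in 3 of the 44 windows (6.82%) and in 7.15% of all windows. The members' windows include genes that did not pass the test, such as Egln1 and Egln2, both with ACGTG. Each of these motifs holds a CpG, and the members' windows and all windows were not matched for CpG content. The Egln3 window held 16 CpG dinucleotides and the P4ha1 window 32, against a median of 7 over 32851 windows. The shares therefore do not show that the members hold more HIF sites than other genes of like CpG content.

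Of the collagen hydroxylases, edgeR called 0 of 7 tested, DESeq2 called 1 (P4ha1), and 2 (P4ha1 and Plod2) had an unadjusted p of at most 0.05. P4ha1 encodes the main catalytic subunit of collagen prolyl 4-hydroxylase, which pairs with the subunit encoded by P4hb. P4ha1 (chromosome 10, 59323296 to 59373304) stood at 85.4, 96.6, 101 and 121 CPM in the 68-week libraries, against 84.3, 76.1, 77.0 and 67.0 CPM in the 12-week libraries. The ages came within about 1 CPM of each other but did not overlap. Its log2 fold change was 0.41 ± 0.10 (adjusted p = 0.0735, edgeR), 0.31 without 68-week replicate 4 and 0.48 ± 0.13 with airway markers as a covariate (edgeR adjusted p = 0.150 and 0.171). It was called by DESeq2 (adjusted p = 0.00430) and by edgeR without the filter on low counts (adjusted p = 0.0318).

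P4ha2 averaged 49.7 ± 4.62 CPM at 68 weeks and 44.5 ± 4.04 at 12 weeks, and P4ha1 made 73.9% to 77.0% of the P4HA sum per kilobase at 68 weeks and 70.5% to 74.1% at 12 weeks. Among the lysyl hydroxylases, which prepare collagen for crosslinking, Plod2, the one that acts on telopeptides, averaged 35.1 ± 2.13 CPM at 68 weeks and 31.8 ± 2.05 at 12 weeks (log2 fold change 0.14, 95% interval 0.0045 to 0.28, adjusted p = 0.248, edgeR). Plod1 averaged 106 ± 8.68 and 108 ± 9.85 CPM and Plod3 42.5 ± 2.76 and 42.1 ± 0.673 CPM at 68 and 12 weeks. The prolyl 3-hydroxylase genes P3h2 and P3h3 had log2 fold changes of -0.17 and -0.09 with intervals that include 0.

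Genes of the substrates and of other steps of collagen maturation that passed the test were lower at 68 weeks. The 8 fibroblast markers include Col1a1 and Col3a1, which are also among the collagen genes below. These markers summed to between 851 and 1116 CPM at 68 weeks and to between 1180 and 1486 CPM at 12 weeks. EdgeR called 1 of the 8 lower, Col1a1, and DESeq2 called 3 lower, Col1a1, Col3a1 and Pdgfra. The part of fibroblasts in the result was not tested. Of 12 collagen genes, edgeR called 0 higher and 2 lower, DESeq2 0 and 7, with a median log2 fold change of -0.36. They were Col5a2, at 37.0 ± 5.10 CPM at 68 weeks and 54.0 ± 5.43 at 12 weeks (-0.55 ± 0.11, adjusted p = 0.0317, edgeR), and Col1a1, at 167 ± 29.4 and 278 ± 52.1 CPM (-0.73 ± 0.16, adjusted p = 0.0427, edgeR). Of 17 genes of collagen maturation, 0 rose and 3 fell by edgeR as by DESeq2, with a median of 0.0034. These were the crosslinking enzyme genes Lox (-0.75 ± 0.13) and Loxl1 (-0.41 ± 0.080) and the procollagen protease gene Adamts2 (-0.35 ± 0.080; adjusted p = 0.0210, 0.0335 and 0.0499, edgeR). With the airway markers in the model, 0 genes of either list were called, and these 5 had log2 fold changes of -0.45, -0.53, -0.71, -0.40 and -0.30.

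**Figure D3:**
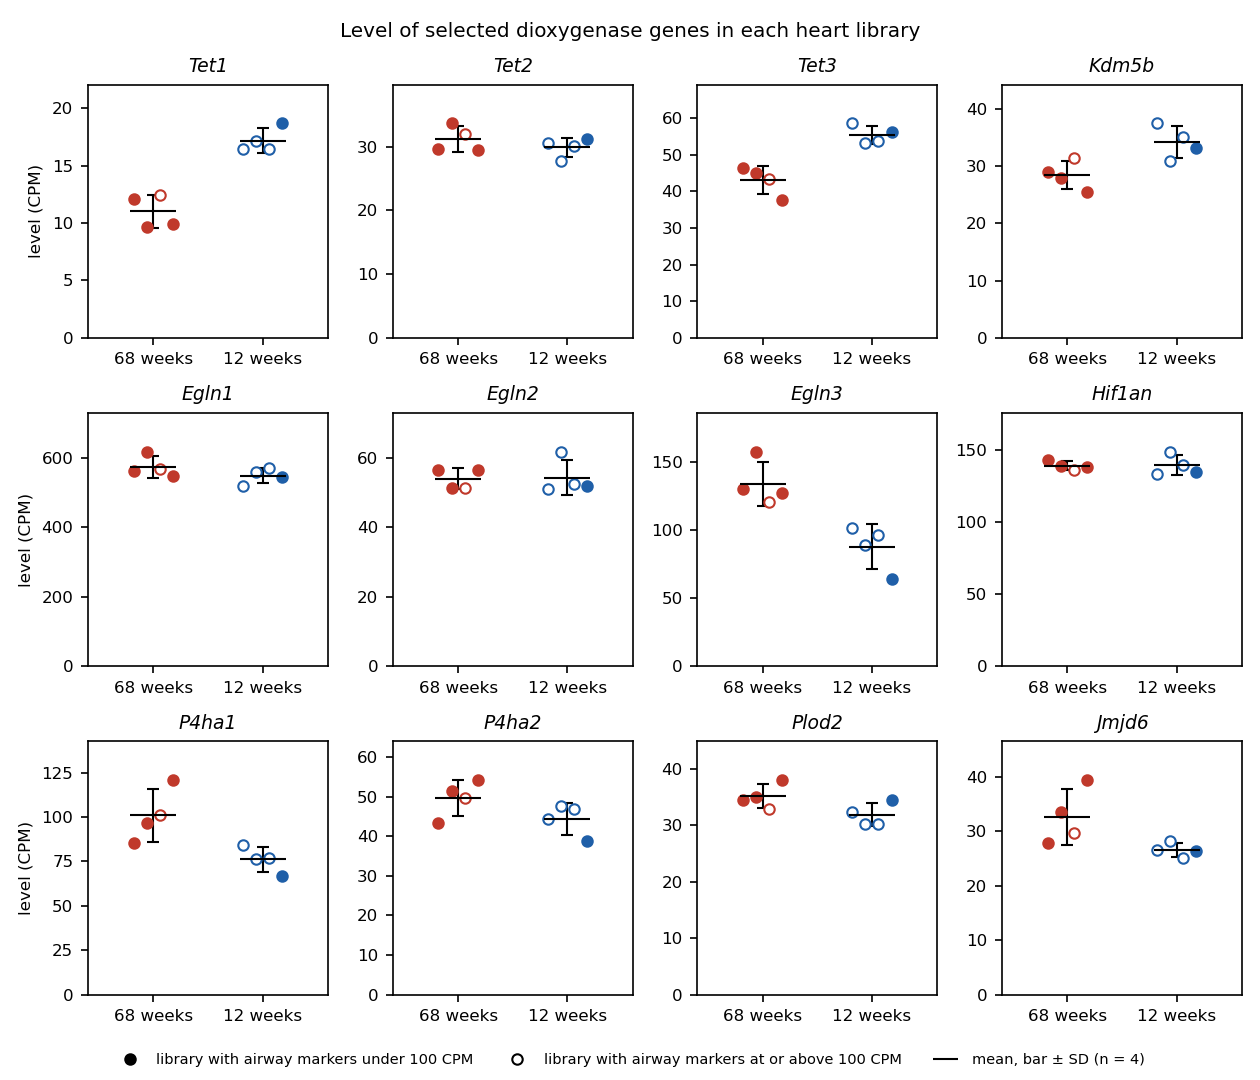
Level in CPM (y axis, from 0) of 12 dioxygenase genes in each library, 68 weeks left of 12 weeks, with the mean and SD of 4 libraries in black and open points for libraries with at least 100 CPM of airway markers. Tet1 and Tet3 are lower and Egln3 and P4ha1 higher in all 4 libraries at 68 weeks than in any at 12 weeks, and Egln1, Egln2, Hif1an and Tet2 overlap.

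Of the 11 histone lysine demethylase genes tested, 0 were called by edgeR, 3 had an unadjusted p of at most 0.05 (Kdm5b, Kdm4a and Kdm4c), and DESeq2 also called 0. All 11 intervals lay within 0.5 of 0, and 7 of the 11 log2 fold changes were negative. The class median was -0.061. Kdm5 enzymes remove methyl groups from H3K4, a mark of active promoters. Kdm5b had the largest difference of the class, at 29.1, 27.9, 31.4 and 25.5 CPM in the 68-week libraries, against 37.6, 31.0, 35.2 and 33.2 CPM in the 12-week libraries. The highest library at 68 weeks, replicate 3, lay just above the lowest at 12 weeks, replicate 2. Its log2 fold change was -0.27 ± 0.077 (adjusted p = 0.102, edgeR), and -0.18 ± 0.084 with the airway markers in the model. Kdm5a (-0.10) and Kdm5c (0.02) differed less, with intervals of -0.21 to 0.0019 and -0.09 to 0.12.

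The H3K9 and H3K36 demethylase genes Kdm4a and Kdm4c both differed by -0.13 on the log2 scale (edgeR adjusted p = 0.232 and 0.235), and Kdm4b had -0.06. Kdm4d stood at 0, 0, 0 and 1 count in the 68-week libraries and at 0, 2, 2 and 0 counts in the 12-week libraries, too few for any comparison. Among the H3K9 demethylases of the KDM3 group, Kdm3b stood at 72.4, 66.1, 68.4 and 61.8 CPM in the 68-week libraries, against 73.9, 70.4, 70.8 and 74.5 CPM in the 12-week libraries, and the ages overlapped (log2 fold change -0.11, 95% interval -0.23 to 0.01). Kdm3a, a HIF target, had 0.14 (-0.01 to 0.29), and Jmjd1c, a close relative, had -0.02 (-0.13 to 0.09). Kdm2a, an H3K36 demethylase, had 0.07 and Kdm8 0.02. Of the 16 methyltransferase genes for H3K4, H3K9 and H3K36, edgeR and DESeq2 called 0, and 4 had an unadjusted p of at most 0.05. The smallest p was that of Ehmt1, an H3K9 enzyme, at -0.13 on the log2 scale (edgeR adjusted p = 0.194).

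Of the 5 enzymes of RNA, edgeR and DESeq2 called 0, 1 (Alkbh3) had an unadjusted p of at most 0.05, and all 5 intervals lay within 0.5 of 0. Alkbh5 and Fto remove the methyl group of m6A, the commonest internal mark of mRNA. Alkbh5 stood at 240, 234, 231 and 235 CPM in the 68-week libraries, against 222, 231, 237 and 238 CPM in the 12-week libraries. These overlapped, and the interval of its log2 fold change, -0.08 to 0.11, was among the narrowest. Fto averaged 89.4 ± 4.02 CPM at 68 weeks and 87.7 ± 2.97 at 12 weeks (interval -0.08 to 0.14). Alkbh3, which repairs alkylated RNA and single-stranded DNA, stood at 22.02, 22.9, 22.3 and 24.1 CPM at 68 weeks against 18.2, 21.6, 21.7 and 20.9 CPM at 12 weeks, without overlap, and did not pass the test (log2 fold change 0.15 ± 0.066, adjusted p = 0.249, edgeR). The tRNA enzyme genes Alkbh1 and Alkbh8 had 0.10 and 0.05. Of 13 genes of m6A writers and readers, edgeR and DESeq2 called 0, 1 had an unadjusted p of at most 0.05, and the smallest p was that of the writer subunit gene Zc3h13 (0.11 ± 0.048, adjusted p = 0.253, edgeR).

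Of the 10 enzymes of other proteins, edgeR and DESeq2 called 0, and 2 (Jmjd6 and Alkbh6) had an unadjusted p of at most 0.05. Jmjd6, a lysyl hydroxylase of splicing factors, stood at 27.9, 33.5, 29.7 and 39.5 CPM in the 68-week libraries, against 26.6, 28.2, 25.1 and 26.5 CPM in the 12-week libraries. The ages overlapped, and 68-week replicate 4 was the highest. Its log2 fold change was 0.30 ± 0.10 (adjusted p = 0.150, edgeR), and 0.19 without that library. Alkbh6, whose substrate is not established, stood at 13.2, 13.8, 13.2 and 13.4 CPM at 68 weeks against 11.2, 11.3, 10.2 and 12.6 CPM at 12 weeks, without overlap (0.24 ± 0.072, adjusted p = 0.110, edgeR). Asph averaged 275 ± 19.6 CPM at 68 weeks and 252 ± 14.7 at 12 weeks (0.13, interval -0.02 to 0.27). This gene encodes both a hydroxylase of EGF-like domains and junctin, a protein of the calcium release complex that lacks the catalytic domain, and counts per gene do not separate them.

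Alkbh7, a mitochondrial enzyme and the most abundant of this class per kilobase, stood at 37.3, 35.9, 34.7 and 39.5 CPM in the 68-week libraries, against 38.1, 41.2, 37.8 and 32.7 CPM in the 12-week libraries, and the ages overlapped. Ogfod1, which hydroxylates a proline of a small ribosomal subunit protein, averaged 47.0 ± 3.24 CPM at 68 weeks and 46.6 ± 2.27 at 12 weeks. Jmjd4, which hydroxylates the translation release factor eRF1, had a log2 fold change of 0.11 and Jmjd8, of the endoplasmic reticulum, 0.08. Jmjd8 shares 684 bases of its counted exon with Stub1 and Ogfod3 223 bases with Hexdc on the other strand, so their counts are uncertain. P3h2 (28.4% of its counted exon, with Gm4524), Asph (14.3%, with Clvs1) and Plod3 (11.7%, with Znhit1) also overlap a gene on the other strand. In all, 17 members overlap an exon of another gene. Tet1, Tet3, Egln3 and P4ha1 are not among them. Ogfod2, Ogfod3 and Alkbh4 had log2 fold changes of -0.06, -0.02 and -0.17.

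Among the enzymes of small molecules, Phyh hydroxylates phytanoyl-CoA for alpha-oxidation in peroxisomes. It stood at 407, 437, 409 and 405 CPM in the 68-week libraries, against 407, 430, 422 and 464 CPM in the 12-week libraries. The ages overlapped (log2 fold change -0.05, interval -0.18 to 0.07). Carnitine synthesis opens with Tmlhe and closes with Bbox1, an enzyme best known in liver and kidney. Tmlhe averaged 12.8 ± 1.21 CPM at 68 weeks and 14.2 ± 1.19 at 12 weeks (-0.16, interval -0.36 to 0.04). Bbox1 had 3, 0, 5 and 0 counts in the 68-week libraries, against 12, 12, 7 and 3 counts in the 12-week libraries, and did not pass the filter. Of 11 partner genes of carnitine and phytanate metabolism, edgeR and DESeq2 called 0, and 1 had an unadjusted p of at most 0.05. The smallest p was that of Hacl1, the lyase of alpha-oxidation (-0.24 ± 0.090, adjusted p = 0.197, edgeR).

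Of 24 genes that make or use 2-oxoglutarate, succinate and fumarate, edgeR called 0 and 4 had an unadjusted p of at most 0.05, with a median log2 fold change of 0.00068. DESeq2 called Adhfe1 lower (adjusted p = 0.0324) and Idh2, a mitochondrial isocitrate dehydrogenase, higher. The smallest p by edgeR was that of Adhfe1, a transhydrogenase that links 4-hydroxybutyrate and 2-oxoglutarate (-0.25 ± 0.065, adjusted p = 0.0780, edgeR). Of 17 related dioxygenase genes outside the 46, edgeR called 0 higher and 1 lower, the Y-linked Uty (log2 fold change -0.18 ± 0.040, adjusted p = 0.0491, edgeR), and their median was -0.087. Among these 17 are Kdm6a, Kdm6b and Uty, of the H3K27 demethylase family left out of the 46. Uty was not called with airway markers as a covariate (-0.19, edgeR adjusted p = 0.206) or by DESeq2 (adjusted p = 0.0602), which called Hr lower.

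H3K27me3, the mark of Polycomb silencing, was mapped by CUT&RUN with 2 antibody libraries and 1 input library per age. The authors' lists of regions unique to an age link 1 of the 46 genes to a region (2.17%). The list of 68 weeks, which holds that link, links 2.37% of all 49315 genes, near the members' share, and that of 12 weeks links 1.04%. Most of all genes did not pass the filter on low counts, whereas most members did. Of the 15947 genes tested, the 68-week list links 539, and the linked member was not tested. P4ha3, the third catalytic subunit gene of collagen prolyl 4-hydroxylase, is linked to 1 of the 3433 regions unique to 68 weeks, at chromosome 7, 99949045 to 99949426, as the authors' list gives it. The build of these positions was not established. In the count tables P4ha3 lies at 100285520 to 100319699 on that chromosome, 336094 bases away. The region's deposited enrichment score was 7.47, against a median of 4.77 for the list. Of the 1164 regions unique to 12 weeks, 0 were linked to a member. P4ha3 had 8, 4, 11 and 8 counts in the 68-week libraries, against 6, 9, 2 and 2 counts in the 12-week libraries, overlapping and under the filter. The lists hold no value per library, so no test was possible for this region.

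**Figure D4:**
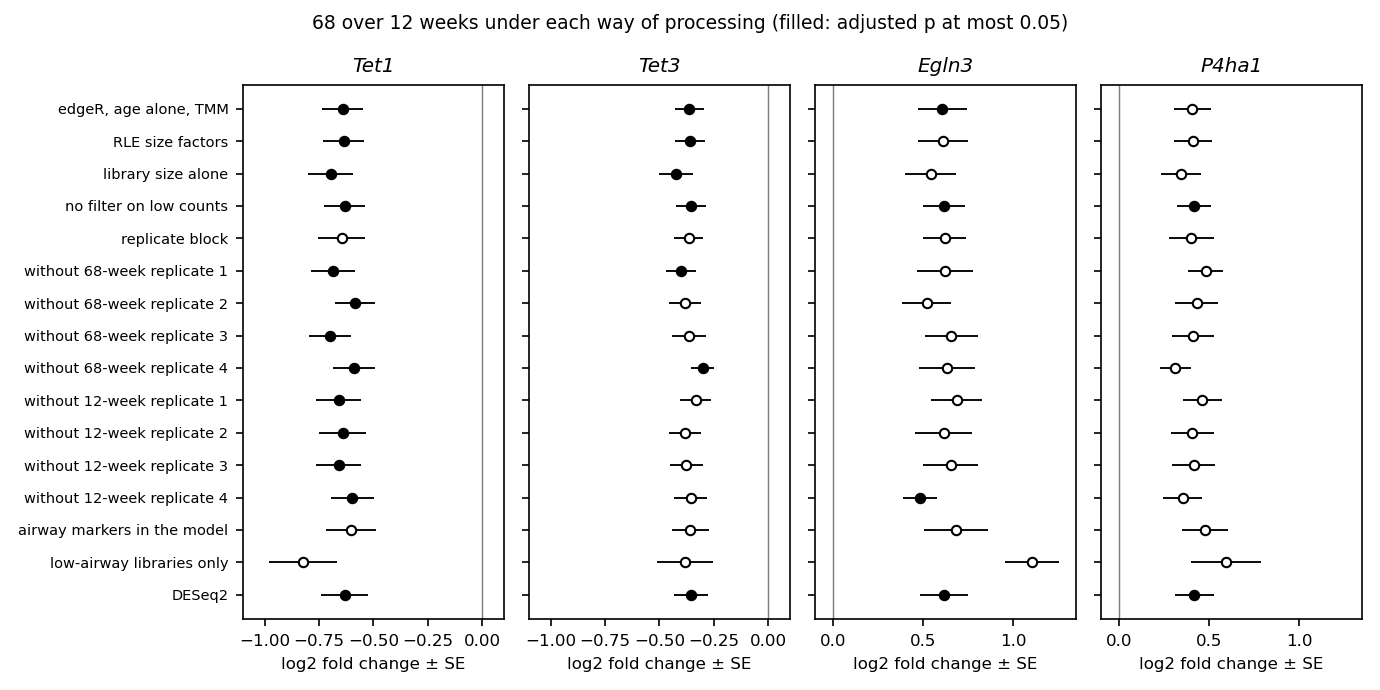
Log2 fold change ± SE (x axis) of Tet1, Tet3, Egln3 and P4ha1, 68 weeks over 12 weeks, under 16 ways of processing down the page, filled where the adjusted p was at most 0.05. Tet1 and Tet3 stay below 0 and Egln3 and P4ha1 above 0 in all of them, and with the airway markers in the model, with the replicate block and in the low-airway libraries no point is filled.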

How the data were processed

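RNA was measured in 8 heart libraries. Per the file headers and values, the authors deposited raw counts of reads per gene. Trimmomatic 0.36, STAR 2.5.2b, featureCounts, Subread 1.5.2 and DESeq2 are named in the submitters' processing notes without roles or order. The strand setting is not given in the sources used here. Reads of genes that overlap on opposite strands may be mixed. The deposited region lists give a score per H3K27me3 region, called enrichment by the authors, on a scale not stated. The authors' counts entered edgeR 4.0.16 under R 4.3.3 (quasi-likelihood test, TMM, filterByExpr, Benjamini-Hochberg over 15947 genes, threshold 0.05), with age as the model. Values are CPM of the normalized library size as mean ± SD, and marker sums are CPM of total counts. Approximate SEs and 95% intervals were taken from the fold change and its F statistic. The common biological coefficient of variation was 13.9%. All pairs of libraries of an age differed by more than sampling noise (lowest ratio of chi-square to its degrees of freedom 17.4). The test was first tried on simulated counts with known changes. Alternatives were other scalings, DESeq2 1.42.0, no filter, a replicate block, leaving out each library, airway markers as a covariate, and only the libraries under 100 CPM of airway markers. Genes were named by a written rule: all members, and per further list the called genes or else the one with the smallest p. The members and lists were chosen with earlier results of these data known. Promoter windows come from RefSeq, which matched 37 of the 46 members.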

Additional observations from a re-analysis of the deposited data

Results flagged for a closer look

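Of 86 sets of 4 libraries (43 genes at 2 ages), 5 held a library whose gap to the nearest other was past Dixon's 95% critical value, where chance gives about 1 in 20. In 68-week replicate 2, Kdm2a was low at 80.9 CPM against 85.9 to 86.1 CPM in the rest of the 68-week libraries, P3h2 was low at 4.18 CPM against 5.61 to 5.80 CPM, and Phyh was high at 437 CPM against 405 to 409 CPM. In 12-week replicate 2, Egln2 was high at 61.8 CPM against 50.9 to 52.5 CPM. In 12-week replicate 4, Plod3 was high at 43.1 CPM against 41.7 to 41.8 CPM. None of these genes was called, and 3 of the 5 sets involve 68-week replicate 2.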

How the results depend on the processing

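The count of members higher at 68 weeks, 1, became 0 with RLE size factors, library size alone, the replicate block, the airway markers in the model and the low-airway libraries, and 2 without the filter and by DESeq2, which added P4ha1. The count of members lower, 2, became 0 with the replicate block, the airway markers and the low-airway libraries. Leaving out 1 library gave 0 to 1 higher and 1 to 2 lower. Tet3 was lost without 68-week replicate 2 or 3 and without each 12-week replicate, and Egln3 without each library but 12-week replicate 4. The low-airway comparison sets 1 library at 12 weeks against 3, and the lone library is assumed to vary like the others. Over all alternatives the log2 fold change ran from -0.82 to -0.58 for Tet1, -0.42 to -0.30 for Tet3, 0.48 to 1.11 for Egln3 and 0.31 to 0.59 for P4ha1, and their highest adjusted p was 0.158, 0.447, 0.162 and 0.441 (edgeR). Leaving out libraries gave adjusted p from 0.0149 to 0.0367 for Tet1, 0.0333 to 0.0708 for Tet3, 0.0415 to 0.117 for Egln3 and 0.0525 to 0.150 for P4ha1.

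The labels do not say that the replicate numbers pair the samples. Deviations of same-numbered libraries correlated at -0.197, 0.0368, -0.0524 and 0.238, and 68-week replicate 3 followed 12-week replicate 1 most closely (0.563). Those libraries both had high airway counts (1125 and 1877 CPM), so the correlations do not decide whether the numbers pair the samples. With the replicate block 0 members rose and 0 fell. All genes called then numbered 112 higher and 48 lower, against 256 and 195. They numbered 73 and 22 with the airway markers, 10 and 23 in the low-airway libraries, 176 and 248 with library size alone, 322 and 271 without the filter, and 564 and 436 by DESeq2.

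The median of the 43 members, 0.013, was -0.045 with library size alone, which shifted all genes by -0.059, and ran from -0.0042 to 0.026 when 1 library was left out. The region linked to P4ha3 also had a score above the list's median, so the count stayed at 1. The sign changed for 16 members, none called in any setting, and with log2 fold changes of at most 0.0804 in size under TMM with age alone and 0.203 under any alternative. With library size alone the values were Kdm5c -0.042, Kdm8 -0.034, Alkbh5 -0.040, Alkbh8 -0.014, Fto -0.031, Plod3 -0.043 and Ogfod1 -0.045. With the airway markers they were Kdm5c -0.024, Alkbh5 -0.013, Plod1 0.014, Ogfod1 -0.051, Ogfod2 0.0072 and Alkbh7 0.0056. In the low-airway libraries they were Kdm4b 0.046, Kdm5c -0.028, Kdm8 -0.0062, Tet2 -0.016, Alkbh5 -0.011, Fto -0.0014, Egln2 0.081, Hif1an 0.056, Plod1 0.20, Plod3 -0.025, Jmjd8 -0.0078, Ogfod2 0.054 and Alkbh7 0.20. Hif1an had 0.0037 with RLE, 0.0077 without the filter, 0.00072 with the block and 0.0088 by DESeq2, and Egln2 0.00090 by DESeq2. Leaving out libraries gave Kdm5c -0.00021 to 0.037, Kdm8 -0.013 to 0.092, Alkbh5 -0.00081 to 0.031, Egln2 -0.037 to 0.060, Hif1an -0.018 to 0.034, Plod1 -0.089 to 0.011, Plod3 -0.024 to 0.044, Ogfod1 -0.028 to 0.050, Ogfod3 -0.067 to 0.024 and Alkbh7 -0.081 to 0.027. The causes were not tested.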
